A study of Mus musculus with 12 samples.

Results

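Tmem54 and Cd74 are 2 genes that each had 1 region listed near the transcription start site (TSS) when DNA methylation in liver tumors was compared between mice of an arsenite line and control mice. Their entries were taken from the authors' deposited lists by the symbol of the nearest gene, which gave 2 of 1711 listed regions. Both were in the tumor list of 1547 regions. Neither gene appeared among the 107 regions of the normal liver list or the 57 regions of the non-tumor liver list. Absence there is the usual case, as 0.420% and 0.228% of RefSeq protein-coding genes were nearest to a region of these lists. The genes were picked because of these tumor values, so the values are given as a description and carry no test.

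The animals were F2 males of the C3H/HeN strain, 74 weeks old in the 12 samples of this series, and were profiled by reduced-representation bisulfite sequencing (RRBS). RRBS cuts DNA with MspI at CCGG, converts unmethylated cytosines and reads the CpG-rich fragments. AA stands for the arsenite line, whose F1 parents were exposed to arsenite in gestation, and CC for the control line; N, Tn and Tt stand for normal liver, non-tumor liver and tumor tissue. CCTn, AAN, AATn and AATt had 3 samples each, and CCN and CCTt, also 3 samples each, belong to an earlier deposit and enter only through the authors' comparisons. The tumor values thus set AATt against tumors of another deposit, so line and deposit cannot be told apart. Whether each sample is from a mouse of its own is not stated in the labels. AATn and AATt samples carry the same numbers, 5, 9 and 13, so the arsenite-line tumor and non-tumor samples may share mice, which no source used here states. Only group differences in percentage points were used here, with no value per sample, so no replicate error can be given, and read depth is unknown. Bulk tissue was measured, so a different mix of cells and a different methylation level within 1 kind of cell cannot be told apart. The strain differs from the reference strain C57BL/6J.

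A negative difference is read here as lower methylation in the arsenite line. No source used here defines the sign, and if it were the opposite in the tumor list, both regions would be higher in that line. RNA levels of the genes were not analysed here.

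Cytosine methylation at a CpG-rich start site usually goes with a silent gene in mammals, while methylation inside a gene body has no such fixed relation to its activity. CD74 is the invariant chain of MHC class II. It escorts newly made class II molecules in antigen-presenting cells, fills their peptide groove until it is degraded, and also serves at the cell surface as a receptor for the cytokine MIF. TMEM54 is a membrane protein that crosses the membrane several times and whose function is little known.

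The start of Tmem54 is shown first, since the listed region begins there, with the sequence just before the region beside the first part of the region itself. The sequences are the RefSeq reference, build GRCm38.p6, plus strand, 5′ to 3′, and capitals mark CpGs. The stretch before the region is chr4:129105280-129105356, and that inside it is chr4:129105357-129105597.
Tmem54 before the region: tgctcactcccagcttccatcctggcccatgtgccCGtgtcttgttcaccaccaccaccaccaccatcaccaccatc
Tmem54 in the region: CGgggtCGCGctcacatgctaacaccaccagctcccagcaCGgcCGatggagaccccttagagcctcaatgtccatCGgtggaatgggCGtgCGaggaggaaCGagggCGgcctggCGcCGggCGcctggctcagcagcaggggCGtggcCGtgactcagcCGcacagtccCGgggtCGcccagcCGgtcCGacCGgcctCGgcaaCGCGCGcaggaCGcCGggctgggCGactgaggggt
The 77 bases before the region held 1 CpG, and the 241 bases inside it held 28, or 1.30 and 11.6 CpGs per 100 bp. The first base of the region is the C of the CpG in an MspI site, CCGG, that begins at -174 bp from the TSS. The CCGG sites that follow in this stretch began at -55, -3, 11, 20 and 46 bp from the TSS, so that the spacings were 119, 52, 14, 9 and 26 bp.

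RefSeq gave 2 windows of 300 bases around starts of Tmem54, from 250 bp before to 50 bp after the start, with 28 and 29 CpGs. The median of all 32851 windows was 7 CpGs, and 14.2% of windows held 28 or more. The ratio of observed to expected CpGs was 0.796 and 0.799 in the Tmem54 windows, against a median of 0.384. Each window held 6 matches to CCGG, a motif that reads the same on both strands. At least 1 match was found in 52.8% of all windows, and 6 or more in 4.37%. Of 3 further motifs, chosen with this sequence in view and searched on both strands, GGGCGG had 1 match, 68 bp upstream of the TSS (35.7% of windows hold one), and TGACTCA had 1 match, 21 bp upstream (5.20% of windows). TATAAA had no match in these windows and occurred in 13.6% of all windows. The GGGCGG match contains a CpG, and a match describes letters, not binding.

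The Tmem54 region was long and dense in differentially methylated sites. It covered chromosome 4, 129105357 to 129106478 (mm10, counted from 1), or 1122 bp, from 173 bp upstream of the TSS to 948 bp downstream of it. In the authors' deposited table its difference was -29.6 points. It held 52 CpG sites, and 38 were called differentially methylated CpGs (DMCs) while 14 were not. Most of its length, 949 bp, lay from the TSS onward, so the region covers the start and the first part of the gene. Its length equals 18.4% of that of the gene span (6098 bp). Only gene spans were at hand, so exon, intron and UTR parts of the region are not given. If sites are counted on each strand, as found below, the 28 CpGs printed above hold 56 of them, more than the 52 listed for the whole region. In that case not every CpG of the region entered the authors' value.

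The Cd74 region was small and lay inside the gene. It covered chromosome 18, 60804735 to 60804871, or 137 bp, and stretched from 886 to 1022 bp downstream of the TSS. In the authors' deposited table its difference was -23.7 points, from 3 CpG sites with 2 DMCs. If sites are counted on each strand, 3 sites can come from as few as 2 CpGs. The 2 DMCs could then be the 2 strands of 1 CpG. A count of 3 sites is the smallest in any of the lists, and 521 of the 1547 tumor regions had it. The region did not reach the TSS, and it ended just past the 1 kb by which the gene was chosen. It is therefore described here as an intragenic region near the start, not as a promoter. The Cd74 span is 8804 bp long, and the region took up 1.56% of that length.

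**Figure D1:**
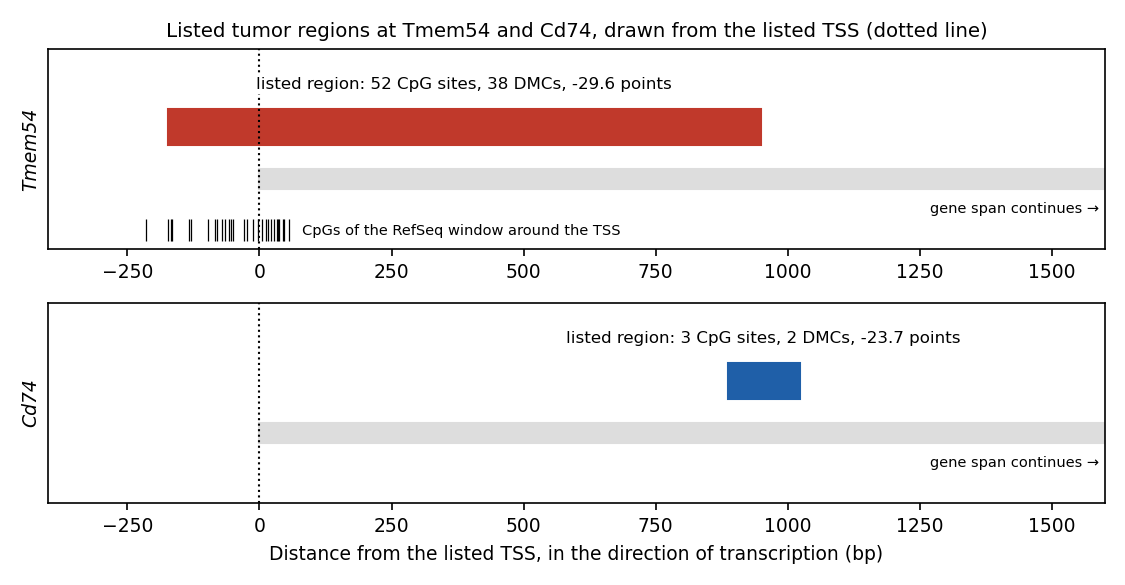
The listed tumor regions at Tmem54 (red) and Cd74 (blue) against distance from the listed TSS in bp, with the gene span in grey and, for Tmem54, ticks for the CpGs of the RefSeq windows. The Tmem54 region runs across the TSS, from -173 to 948 bp, while that of Cd74 lies between 886 and 1022 bp downstream.

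Within the tumor list the genes stood at different places. By absolute difference, Tmem54 was number 146 of 1547 regions and Cd74 number 648, where the median was 23.0 points. Among the 484 negative regions they were numbers 58 and 206. By number of DMCs, Tmem54 was number 7, level with a region nearest to Gm16880, and by length it was number 3. By number of CpG sites it was number 10, level with a region upstream of the TSS listed for Fgfr1 (-3336 bp), a fibroblast growth factor receptor gene. That region had the opposite sign (24.3 points, 24 of 52 sites DMCs). The neighbours in the order of differences were close: Mbp at -29.58 and Gm16157 at -29.54 points around Tmem54, and Fgf16 at -23.72 and Gpr50 at -23.67 points around Cd74. With no replicate error, such gaps cannot be read as an order.

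The share of sites called DMCs was 73.1% at Tmem54 and 66.7% at Cd74, against a median of 40% over the tumor list. For Cd74 this share rests on 3 sites, and 187 of the 521 tumor regions with 3 sites (35.9%) had 2 or 3 DMCs. For Tmem54 it rests on 52. Of the 33 tumor regions with 30 or more CpG sites, 4 had a higher share of DMCs than Tmem54 and 6 a larger absolute difference, and their median share was 43.9%. Those 33 regions were negative in 21 cases and positive in 12, whereas 31.3% of all tumor regions were negative. A negative sign was thus the more common one among regions with that many sites. The density of listed CpG sites was 4.63 sites per 100 bp at Tmem54, near the median, and 2.19 at Cd74, with a median of 4.1 in the tumor list.

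**Figure D2:**
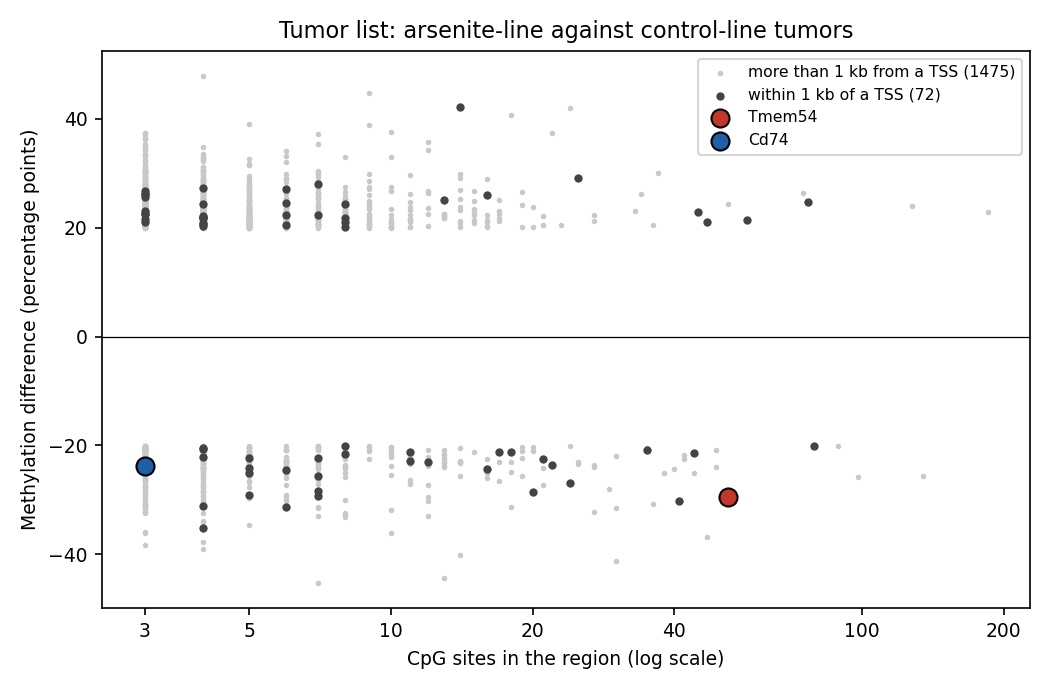
Methylation difference in percentage points against the number of CpG sites (log scale) for each of the 1547 tumor regions, with those within 1 kb of a TSS in dark grey and Tmem54 and Cd74 in colour. Tmem54, at 52 sites and -29.6 points, lies far to the right of most regions, while Cd74 is in the column of 3-site regions at -23.7 points.

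Both differences were negative. In the whole tumor list 31.3% of regions were negative, and within 1 kb of a TSS 50.0% were (36 of 72; exact Clopper-Pearson 95% interval 38.0% to 62.0%, counting error only). Only 4.65% of tumor regions lay that close to a TSS, against 12.1% in the normal and 5.26% in the non-tumor list. Since the genes were chosen from this list, nothing is read from their shared sign. At the 1 kb limit, the last regions inside were those of Gsn (980 bp, -24.5 points) and Taf7l (985 bp, -21.4 points), and the first outside were those of Tomm6 (1004 bp, -24.0 points) and Avpr1b (1012 bp, 20.0003 points).

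Among the 72 regions within 1 kb of a TSS, Tmem54 was number 6 and Cd74 number 32 by absolute difference. Only Zfp263, a zinc finger gene, had more DMCs there than Tmem54. The 5 regions nearest to Tmem54 in difference were those of Txk, a Tec family kinase gene of T cells (-29.3 points, 4 of 7 sites DMCs), D030045P18Rik (-29.0 points, 2 of 5), Tmem223 (-30.2 points, 31 of 41), 1700048O20Rik (-28.5 points, 13 of 20) and the pannexin channel gene Panx2 (-28.4 points, 3 of 7). Tmem223 alone of these resembled Tmem54 in its share of DMCs (75.6%) and also lay across its TSS, but was shorter (413 bp). The 5 nearest to Cd74 were Frmd4a (-23.5 points, 11 of 22 sites DMCs), Umodl1 (-23.5 points, 2 of 3), C330024C12Rik (-24.2 points, 2 of 5), Zfp572 (-24.3 points, 6 of 16) and the potassium channel gene Kcnd1 (-24.3 points, 1 of 3). Likeness here means nearness of a single difference in 1 comparison.

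**Figure D3:**
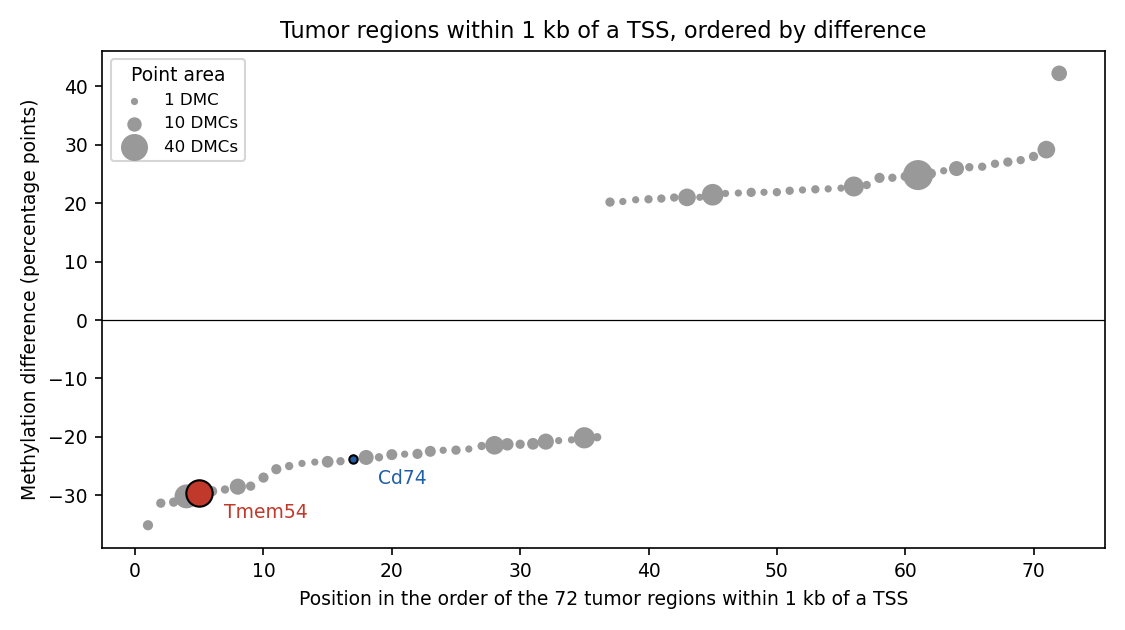
The 72 tumor regions within 1 kb of a TSS in order of their difference in percentage points, with point area growing with the number of DMCs. Tmem54 (38 DMCs) is the fifth from the negative end, beside Tmem223, and Cd74 (2 DMCs) is in the middle of the negative regions.

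Regions that held a TSS were rare in the tumor list, 11 of 1547 (0.711%), and Tmem54 was the longest of them. Their differences were negative in 5 (45.5%) and positive in 6. Beside Tmem54, Tmem223 and Txk, the negative ones were Dnah7a, an axonemal dynein gene (-22.5 points, 5 of 21 sites DMCs), and Colec12, a scavenger receptor gene (-20.2 points, 24 of 79). The positive ones were Ccdc110 (25.9 points, 11 of 16), Gngt2, a G protein gamma subunit gene (25.1 points, 4 of 13), Zfp263 (24.8 points, 50 of 77), Rsph3b (21.5 points, 25 of 57), Henmt1, which encodes a methyltransferase of piRNAs (21.01 points, 16 of 47), and Npc1l1, a cholesterol uptake transporter gene (20.99 points, 2 of 8).

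Zfp263 and Txk are printed for comparison with Tmem54, the first as another long region with many DMCs but with the opposite sign, the second as the nearest in difference. The Txk region and the TSS it holds lie inside the RefSeq span of Txk (72695978 to 72752992). That TSS is thus not the outer start of the gene, unlike that of Tmem54. The stretch of Zfp263 is chr16:3743849-3744148 on the plus strand, and that of Txk is chr5:72736553-72736652 on the minus strand. Both are GRCm38.p6 RefSeq sequences inside the listed regions, 5′ to 3′, with CpGs in capitals.
Zfp263 in the region: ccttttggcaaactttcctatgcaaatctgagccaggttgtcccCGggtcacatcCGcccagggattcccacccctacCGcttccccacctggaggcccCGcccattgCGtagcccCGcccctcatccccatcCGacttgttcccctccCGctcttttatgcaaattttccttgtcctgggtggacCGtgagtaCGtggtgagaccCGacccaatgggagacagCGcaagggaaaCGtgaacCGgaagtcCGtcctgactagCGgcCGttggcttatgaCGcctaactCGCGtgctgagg
Txk in the region: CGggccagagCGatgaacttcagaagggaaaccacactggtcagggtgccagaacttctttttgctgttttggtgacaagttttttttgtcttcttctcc
Zfp263 had 6.67 CpGs per 100 bp (20 in 300 bases, -250 to 49 bp from its TSS). Txk had 2.0 (2 in 100 bases, -50 to 49 bp), and the printed Tmem54 stretch had 11.6 (-173 to 67 bp). These stretches cover different positions around the TSS, so their densities are not directly comparable. In matched RefSeq windows of 300 bases, Tmem54 held 28 CpGs, Zfp263 20 and Txk 4. Cd74 had no matched RefSeq window, so the CpG content at its start is not given. RefSeq windows were matched for 48 of the 72 genes with a tumor region within 1 kb. Their median was 8 CpGs, with a range of 1 to 39, and 3 of them, Rab10os, Henmt1 and Tmem54, held 28 or more. The median was 8 among the 23 with negative and 10 among the 25 with positive differences.

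Other listed regions were counted in the chromosomal surroundings. The tumor list had 88 other regions on chromosome 4, which holds Tmem54, and 46 on chromosome 18, which holds Cd74. The usual number within 1 Mb of a place on these chromosomes was not worked out, so the counts are not read as few or many. Within 1 Mb of the Tmem54 region the tumor list had 3, each 828 kb or more away. They were nearest to 1700003M07Rik (828 kb, 20.1 points), Hmgb4 (864 kb on the other side, -20.8 points) and Col16a1, a collagen gene (931 kb, 20.9 points). Within 1 Mb of the Cd74 region the tumor list had 2. One lay 78.6 kb away inside the RefSeq span of Ndst1, a heparan sulfate synthesis gene, and upstream of the TSS listed for it (12567 bp). It was positive (25.9 points, 1 of 3 sites a DMC). The other lay 210.1 kb away near the start of the proline transporter gene Slc6a7 and was negative (-21.3 points, 3 of 11). The protein-coding genes next to the members had 0 regions in any list, namely Rnf19b and Hpca beside Tmem54 and Rps14 and Tcof1 beside Cd74. Only 5.08% of RefSeq protein-coding genes were nearest to a tumor region, so 0 is the usual outcome for so few genes. The spans of Tmem54 and Hpca overlap by 57 bp at the far end of Tmem54, which the region does not reach.

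**Figure D4:**
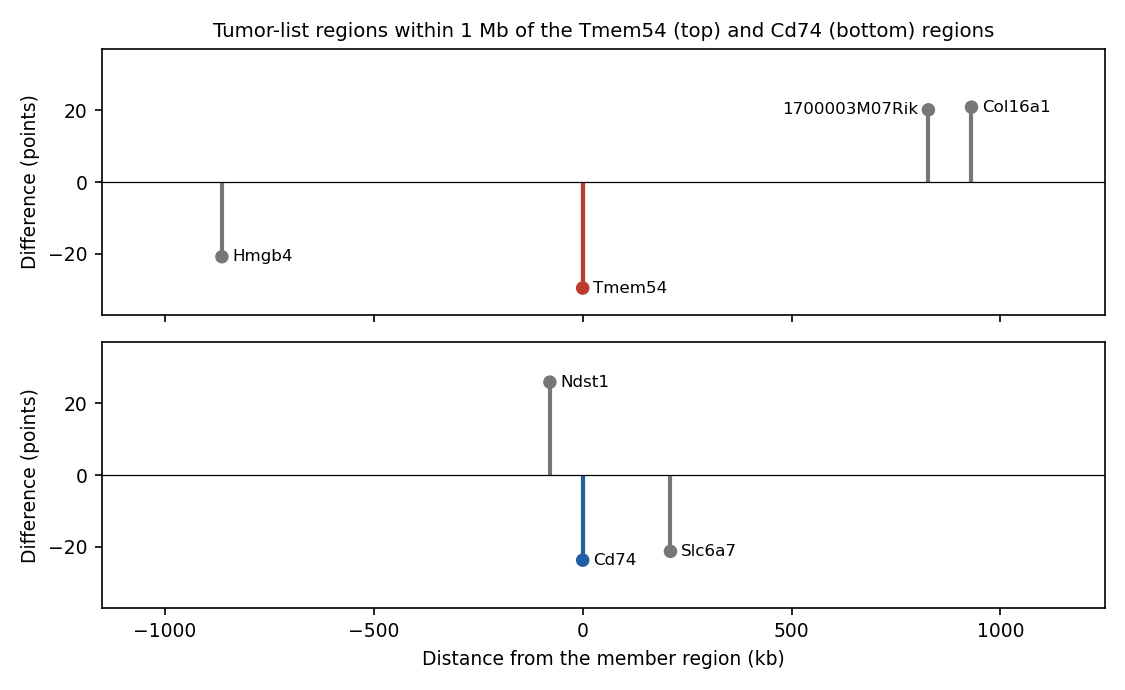
Methylation difference in percentage points of the tumor-list regions within 1 Mb of the Tmem54 region (top) and the Cd74 region (bottom), against distance in kb. Both member regions are negative, the 3 regions around Tmem54 are 828 kb or more away, and the nearest to Cd74, at Ndst1, has the opposite sign.

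In normal and non-tumor liver, nothing was listed at either place. This holds for nearly all genes, as 0.420% of RefSeq protein-coding genes were nearest to a normal region and 0.228% to a non-tumor region. In tumors the share was 5.08%. The nearest entry to the Tmem54 region was 4.05 Mb away in the normal list (Wasf2, -21.6 points) and 2.94 Mb away in the non-tumor list (Sh3d21, 27.6 points). For the Cd74 region the nearest entries were 21.2 Mb (Nr3c1, the glucocorticoid receptor gene, -27.4 points) and 4.29 Mb away (Nedd4l, 23.1 points). Every listed region in the 3 lists differed by at least 20.0003 points, so a smaller difference at Tmem54 or Cd74 in those tissues would not appear. Whether their CpG sites were covered in those comparisons is not known. Whether the tumor difference is larger than that in the other tissues was not tested.

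The genes that work with Cd74 were looked up as a list of 40 genes of MHC class II presentation and CD74 signalling. In tumors 3 of the 40 had regions, with Cd74, for which the list was made, as 1 of the 3. Of all 21900 RefSeq protein-coding genes, 5.08% were nearest to a tumor region, 0.420% to one of the normal list and 0.228% to one of the non-tumor list. The 3 genes had 6 regions in all, of which 1 was negative and 5 positive. Their median was 26.6 points, against 21.4 points over the tumor list. As 5 of the 6 come from Cxcr4 and Ackr3, far from a TSS, no shift of the pathway is read from this median. The negative one was Cd74 itself. The other 5 belonged to the chemokine receptor genes Cxcr4 (25.9 and 27.2 points) and Ackr3 (21.9, 27.3 and 29.2 points), both of which encode partners of CD74 in MIF signalling, and lay 94119 to 195072 bp from the TSS and outside the gene spans. The remaining 37 genes had 0 regions, among them the class II chain genes H2-Aa, H2-Ab1 and H2-Eb1, the peptide exchange factor genes H2-DMa and H2-DMb1, the class II transactivator gene Ciita, the cathepsin S gene Ctss, whose enzyme degrades the invariant chain, and Mif. In normal and non-tumor liver all 40 had 0 regions.

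Markers of the cell types in liver were looked up in the same way, since CD74 is abundant in antigen-presenting cells. The same share of all protein-coding genes, 5.08% in tumors, stands beside these counts, and with so few genes a list no contrast between cell types is read from them. Of 28 leukocyte genes, 4 had 5 tumor regions. Ptprc, the gene of the leukocyte antigen CD45 (-33.0 points, 12 of 12 sites DMCs, 38494 bp from the TSS), and the T cell kinase gene Zap70 (-21.9 points, 4152 bp) were negative. Flt3, a receptor gene of dendritic cell precursors (23.3 and 31.5 points, 30083 and 8562 bp), and Cd8a (22.1 points, 1131 bp) were positive. The other 24, among them the macrophage genes Adgre1 and Clec4f and the B cell receptor gene Cd79a, had 0 regions. Of 12 stellate and endothelial genes, 3 had tumor regions. They were Gpr182 (22.9 points, 761 bp from the TSS), Kdr (25.3 points, 142664 bp) and Cdh5 (-21.6 points, 10075 bp). None of these regions lay wholly inside the span of its gene. The 13 hepatocyte genes and the 10 genes of bile duct and other epithelium had 0 in tumors. In normal liver Arg1 was the only gene of these marker lists with a region (-22.2 points), and in non-tumor liver none of them had one. The part of the cell mix in the Tmem54 and Cd74 differences was not tested.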

How the data were processed

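RRBS of liver DNA (100 ng per library) was processed with Trim Galore, Bismark, methylKit and bedtools 2.25.0 on mm10, per the submitters' processing notes. The authors called regions between groups and deposited 1 list per tissue. Per the file headers, each list gives a methylation difference score, the number of CpG sites and of DMCs, and the nearest TSS. The headers name no unit, and the signed scores are read here as percentage points. Not given in the sources used here are the region caller, its thresholds, the coverage minimum, the depth and the sign.

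Listed starts were checked on RefSeq windows. Of 21 starts inside a window, 21 fell on a CpG base after 1 was added and 4 without it, and 25 of 25 ends did so as listed. The TSS matched a window start after 1 was added in 492 of 612 plus-strand and 518 of 632 minus-strand entries. Starts and TSS were therefore raised by 1, and lengths are 1 bp shorter than listed. After the shift 4 starts fell on the G of a CpG, which is the C of the other strand, so sites were taken as counted per strand. Of the 1711 entries, 1679 matched RefSeq (GRCm38.p6) by accession after its lost zeros were restored.

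Regions were selected by symbol, ranked within the tumor list and counted with Python 3.11.15, pandas 2.3.3 and scipy 1.17.1. The interval for shares was tested on simulated counts, and a rank count on a shuffled series of known order. The other steps were not tested in this way. No test was made, because no per-sample values were at hand. Named genes are Tmem54, Cd74, the members of fixed gene lists, the 5 nearest in difference within 1 kb of a TSS, and regions that hold a TSS, lie within 1 Mb or lie at the 1 kb limit. Fgfr1, Gm16880 and the neighbours in the order of differences were named after their values were seen. The genes and lists were chosen with earlier results of these data known.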

Additional observations from a re-analysis of the deposited data

How the results depend on the processing

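Of 40 alternative values, 25 equalled the reported value, 4 stayed within its 95% interval, 7 moved and 2 reversed. This tally does not measure robustness, since several outcomes were fixed in advance. Most of the equal values were counts of 0, which a stricter filter or a smaller window cannot raise. The regions of Tmem54 and Cd74 have 38 and 2 DMCs, so a filter of 2 or more DMCs had to keep both. The 2 reversed values are the same numbers with the sign changed. The other 2 were counts within 1.5 times of the reported one: the MHC class II and CD74 list had 5 tumor regions instead of 6 with 2 or more DMCs, and Cd74 had 3 neighbours instead of 2 within 2 Mb. With the opposite sign in every list, the differences become 29.6 points at Tmem54 and 23.7 points at Cd74. With 25 points or more, 1 of the 2 tumor regions is left, that of Tmem54. The share of tumor regions with an absolute difference as large or larger was 9.44% for Tmem54 and 41.9% for Cd74, and with 2 or more DMCs it was 14.1% and 53.2%. Among regions within 1 kb of a TSS it was 44.4% for Cd74. By position within 10 kb of the gene, 1 region of the MHC class II and CD74 list is left in tumors, that of Cd74. Within 0.5 Mb of Tmem54 the tumor list had 0 other regions and within 2 Mb it had 6; these 2 distances were chosen after seeing the data. Matching by accession or by position gave the same 2 tumor regions and 0 in the other lists. No paired analysis was possible because the values are group differences without samples, and leaving out a replicate was not possible for the same reason. Depth limits what can be said, since its values were not at hand.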
